A study of Mus musculus with 4 samples.

Results

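The platelet granule and glycoprotein genes described here are 10 of the 30854 gene rows measured on bead arrays of mouse LSK cells, a sorted marrow fraction without lineage markers but with Sca-1 and Kit on the surface, which contains the stem cells and the earliest progenitors of blood. They were taken by name from the gene table, which writes names in capitals: CXCL4 (an older name of Pf4), PPBP, VWF, GP5, GP9, GP1BB, SELP, MMRN1, TUBB1 and PLEK. Total RNA came from 4 pools of 3 to 5 mice each, aged 12 to 16 weeks and of the strain C57BL6/J, with 1 array per pool. The 2 control pools, replicates 1 and 2, are labelled only as control, and whether these mice carried the floxed allele or the Cre transgene is not stated there. The 2 knockout pools, replicates 1 and 3, carried the genotype B-myb floxed-MxCre, in which the floxed gene B-myb (today Mybl2), encoding a transcription factor of dividing cells, can be deleted by a recombinase under the interferon-responsive Mx promoter. Mice of both genotypes had received pIpC, a double-stranded RNA mimic that induces interferon, 1 week before harvest, so the exposure to interferon was shared by all 4 pools. Mx-Cre is not restricted to blood cells, and the share of cells with a deleted allele was not measured. The comparison of knockout with control asks how levels of these transcripts differed between pools labelled B-myb floxed-MxCre and control pools.

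Platelets are shed by megakaryocytes, which load them with alpha granules and cover them with adhesion receptors. Pf4, Ppbp, Vwf and Mmrn1 encode proteins stored in alpha granules, Selp a receptor of the granule membrane that reaches the surface on activation, Gp1bb, Gp9 and Gp5 subunits of the receptor that binds von Willebrand factor, Tubb1 the beta-tubulin of the platelet marginal band, and Plek the kinase substrate pleckstrin. Several of these genes are known in mouse marrow not only from megakaryocytes but also from stem cells with a megakaryocyte bias, and Vwf, Selp and Mmrn1 also from endothelium.

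The arrays were not equally bright. Genes with a detection p under 0.05, which is taken as above background throughout, numbered 12297 and 13439 on the control arrays against 10761 and 8797 on the knockout arrays, and the 95th percentile of the negative control probes lay between 85.3 and 112.8 intensity units. Some bright genes have a detection p above that limit, such as Tubb5. The log2 intensity of Mybl2 was 7.19 and 6.52 in the controls, against 6.72 and 6.62 in the knockouts, and as the place of its probes in the gene is unknown it does not check the deletion. Among genes of the sorting antigens, Kit had control and knockout means of 9.88 and 9.02, and Ly6a, the gene of Sca-1, of 10.75 and 10.55. The pools were separate, and the errors below combine the spread between these 2 pools per genotype with a variance shared over genes.

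Of the 10 platelet genes, 8 had both knockout values below both control values and differed by at least 2-fold, Selp had both knockout values above both control values after normalization, and Tubb1 was not above background on any array under that name. The count at 2-fold depended on background correction, and was 3 of the 10 without it (Pf4, Mmrn1 and Gp5), 4 with an offset of 50 in place of 16 and 5 without knockout replicate 3. Among the 11538 genes tested 28.1% had both knockout values below both controls, and 2.32% did so with a difference of at least 2-fold, while 1.30% had both knockout values above both controls by at least 2-fold. These genes were chosen on the difference in array intensity between the genotypes, which was already known. Their values are therefore a description without a test, and nothing is read from the share. The median difference over all 10 was −1.22 on the log2 scale, counting Tubb1 at its background value, against −0.04 over all genes tested. Whether the knockout fraction held fewer cells with megakaryocyte transcripts or less of these RNAs per cell cannot be told apart in bulk RNA.

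**Figure D1:**
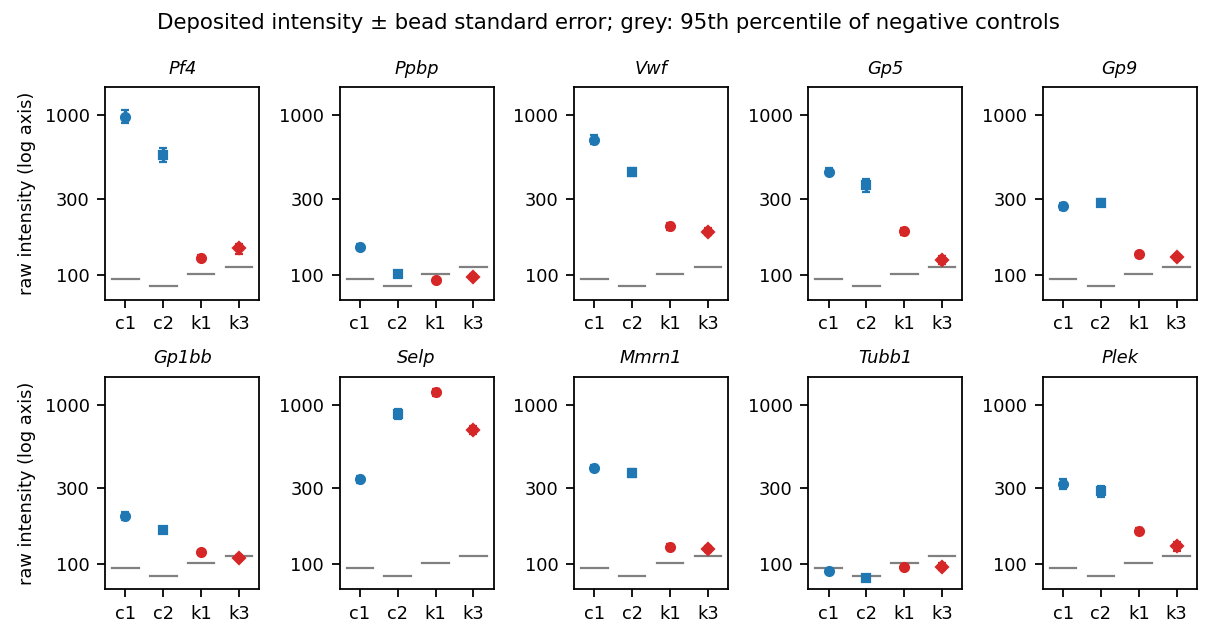
Deposited intensity (log axis) of the 10 genes on control replicates 1 and 2 (c1, c2) and knockout replicates 1 and 3 (k1, k3), with the bead standard error as bars and the 95th percentile of the negative control probes of each array in grey. Pf4 stands at 979 and 565 in the controls against 128 and 146 in the knockouts, and Tubb1 lies below the grey line on every array.

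The sequences upstream of the genes are shown for 5 of them, Gp5, Gp1bb and Mmrn1 because they hold letters recognised by GATA factors, which drive megakaryocyte genes, Pf4 because its difference was the largest of the 10 genes, and Selp because it went the other way. Each run is the 250 bases before the gene's start in RefSeq (build GRCm38.p6), read 5′ to 3′ on the strand of the gene, with a GATA motif on either strand in capitals, which is AGATAA or the same letters with T in place of the first, G in place of the last, or both. The positions are chr16:30310782-30311031 on the minus strand for Gp5, chr16:18622404-18622653 on the minus strand for Gp1bb, chr6:60944067-60944316 on the plus strand for Mmrn1, chr5:90772185-90772434 on the plus strand for Pf4 and chr1:164115014-164115263 on the plus strand for Selp.
Gp5: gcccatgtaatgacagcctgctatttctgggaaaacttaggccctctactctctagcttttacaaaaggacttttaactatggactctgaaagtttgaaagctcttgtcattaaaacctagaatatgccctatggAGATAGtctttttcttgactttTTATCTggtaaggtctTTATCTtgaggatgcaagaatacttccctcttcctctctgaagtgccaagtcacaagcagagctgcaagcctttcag
Gp1bb: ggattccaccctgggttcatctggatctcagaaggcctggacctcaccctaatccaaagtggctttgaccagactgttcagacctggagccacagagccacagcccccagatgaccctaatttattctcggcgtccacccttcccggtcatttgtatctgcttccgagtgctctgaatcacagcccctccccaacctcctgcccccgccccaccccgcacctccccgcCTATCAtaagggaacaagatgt
Mmrn1: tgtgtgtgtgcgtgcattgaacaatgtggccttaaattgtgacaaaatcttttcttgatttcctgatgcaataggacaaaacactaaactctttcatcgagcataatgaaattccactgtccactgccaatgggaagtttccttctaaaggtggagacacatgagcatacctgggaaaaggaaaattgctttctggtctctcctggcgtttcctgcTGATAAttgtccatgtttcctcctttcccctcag
Pf4: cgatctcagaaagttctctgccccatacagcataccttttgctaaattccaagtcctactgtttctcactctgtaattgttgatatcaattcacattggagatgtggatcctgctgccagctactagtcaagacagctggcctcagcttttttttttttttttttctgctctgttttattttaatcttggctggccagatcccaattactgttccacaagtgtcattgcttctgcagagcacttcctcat
Selp: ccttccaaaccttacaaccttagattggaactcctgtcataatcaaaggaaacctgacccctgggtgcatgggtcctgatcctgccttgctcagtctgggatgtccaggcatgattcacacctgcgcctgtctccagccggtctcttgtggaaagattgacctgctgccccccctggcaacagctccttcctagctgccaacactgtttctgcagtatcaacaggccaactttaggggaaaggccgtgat
A window was found for 9 of the 10 genes. The GATA letters occurred in 3 of these 9 windows, with 3 matches in Gp5, 1 in Gp1bb and 1 in Mmrn1, and in 26.5% of all 32851 windows of the same length. Letters of ETS factors, searched as CAGGAA or CCGGAA, occurred in Ppbp, Mmrn1 and Tubb1 and in 35.1% of all windows, and no match overlapped a GATA match. The E-box letters CAGATG occurred in Ppbp and Gp1bb and in 14.4% of all windows, and the RUNX letters TGTGGT in Gp9 and in 14.0%. The NF-E2 letters TGAGTCA occurred in none of the 9 windows and in 4.46% of all windows. A match describes letters in a window and is neither a bound site nor a cause.

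Both genes of platelet chemokines were lower in the knockout. Pf4 encodes platelet factor 4, a heparin-binding chemokine that also acts on stem cell quiescence in mouse marrow. Its intensity was 979 on control replicate 1 and 565 on replicate 2, against 128 on knockout replicate 1 and 146 on replicate 3, with bead standard errors of 92.7, 59.9, 4.59 and 10.5. After background correction and normalization Pf4 stood at 9.23 and 8.96 in the controls, against 5.95 and 6.61 in the knockouts. The genotypes were far apart and neither value of a genotype crossed the other. The difference was −2.81 ± 0.28 (SE, 2 arrays per genotype), or 7.01-fold, and 5 of the 11538 genes tested, Pf4 included, had a difference that low. That rank is a description only, because Pf4 was chosen with this difference known. Ppbp, its neighbour on chromosome 5, encodes the precursor of a neutrophil-attracting platelet chemokine. Its intensity was 150.0 and 100.8 in the controls, against 92.6 and 97.7 in the knockouts, and it was above background on both control arrays and on neither knockout array. Ppbp passed the detection filter through the controls alone, so its difference is given as a bound. That bound was 2.03-fold lower in the knockout and is not a strict minimum, with measured log2 means of 5.42 and 4.24. Without background correction the difference of Ppbp was −0.41.

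The adhesive cargo genes Vwf and Mmrn1 were lower in the knockout on both arrays. Vwf encodes von Willebrand factor, which tethers platelets to damaged vessel walls. Its intensity was 703 and 441 in the controls, against 201 and 187 in the knockouts. On the log2 scale it stood at 8.70 and 8.52 against 7.26 and 7.40, so that the gap between the genotypes was several times the gap within either. The difference was −1.28 ± 0.20. Mmrn1 encodes multimerin 1, the alpha-granule protein that binds coagulation factor V. Its intensity was 402 and 374 in the controls, against 129 and 125 in the knockouts, and its log2 values were 7.75 and 8.22 against 5.97 and 5.90. The knockout arrays lay within 0.07 of each other. The difference was −2.05 ± 0.24, or 4.15-fold, the next after Pf4 among the 10 genes. The table also holds a row under an older name of Vwf and a row under an older name of Mmrn1. Neither was above background on more than 1 array (the Vwf row on knockout replicate 3 only), so they add no level for these genes. Their knockout means were higher than the control means, by 0.44 and 0.22.

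Selp stood apart, and its control arrays disagreed. It encodes P-selectin, which is stored in alpha granules and in endothelial cells and binds leukocytes. Its intensity was 342 on control replicate 1, 876 on control replicate 2, 1194 on knockout replicate 1 and 694 on knockout replicate 3, so the deposited intensities of the genotypes overlapped. After normalization the log2 values were 7.47 and 9.65 in the controls, against 10.30 and 9.87 in the knockouts, which no longer overlapped. The control arrays differed from each other by 2.18, more than the difference between the genotypes of 1.52 ± 0.68. Without control replicate 1 the difference of Selp was 0.43 and without control replicate 2 it was 2.61. Under median scaling, an alternative in which the knockout arrays stay dimmer, it was 0.73 where all genes tested were at −0.70.

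The measured genes of the GPIb-IX-V receptor complex, Gp9, Gp1bb and Gp5, were all lower in the knockout. Gp1ba, the gene of its ligand-binding chain, had no row. Gp9 encodes glycoprotein IX, a small subunit needed for the complex to reach the surface. Its intensity was 269 and 282 in the controls, against 135 and 129 in the knockouts, and the log2 values were 7.04 and 7.68 against 6.14 and 6.09. The difference was −1.24 ± 0.27, with the wider gap between the controls. Gp1bb encodes glycoprotein Ib beta, which is linked to the ligand-binding chain by a disulfide bond. Its intensity was 202 and 165 in the controls, against 120 and 110.5 in the knockouts, and on knockout replicate 3 it was not above background. The log2 values of Gp1bb were 6.50 and 6.46 in the controls, against 5.69 and 4.87 in the knockouts, a difference of −1.20 ± 0.31. Gp5 encodes glycoprotein V, a subunit that thrombin cleaves from the platelet surface. Its intensity was 442 and 364 in the controls, against 188 and 124.5 in the knockouts, with log2 values of 7.91 and 8.16 against 7.10 and 5.90. The difference of Gp5 was −1.54 ± 0.41. Its size rested on which knockout array was used, since the knockout values lay 1.21 apart, and it was −2.14 without knockout replicate 1 and −0.94 without knockout replicate 3.

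Of the cytoskeletal and signalling members, Plek was lower in the knockout and Tubb1 could not be placed under that name. Plek encodes pleckstrin, a substrate of protein kinase C that is abundant in platelets and also present in leukocytes. Its intensity was 320 and 287 in the controls, against 162 and 130 in the knockouts. The log2 values were 7.35 and 7.72 against 6.73 and 6.12, which did not overlap, and the difference was −1.11 ± 0.28. Tubb1 was at 91.2 and 82.0 in the controls, against 96.6 and 97.1 in the knockouts, below the 95th percentile of the negative control probes on all 4 arrays, and has no fold. A further row carries an older name of Tubb1, 2810484G07RIK, and was looked at after its values were seen. Its intensity was 126 and 104 in the controls, both above background, and 98.4 and 100.9 in the knockouts, neither above background. As a bound, that row was 1.80-fold lower in the knockout, with log2 means of 5.27 and 4.37, and this is not a strict minimum. The 2 rows therefore disagree on whether Tubb1 was detected in control cells, and which probe position each reports is not known.

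**Figure D2:**
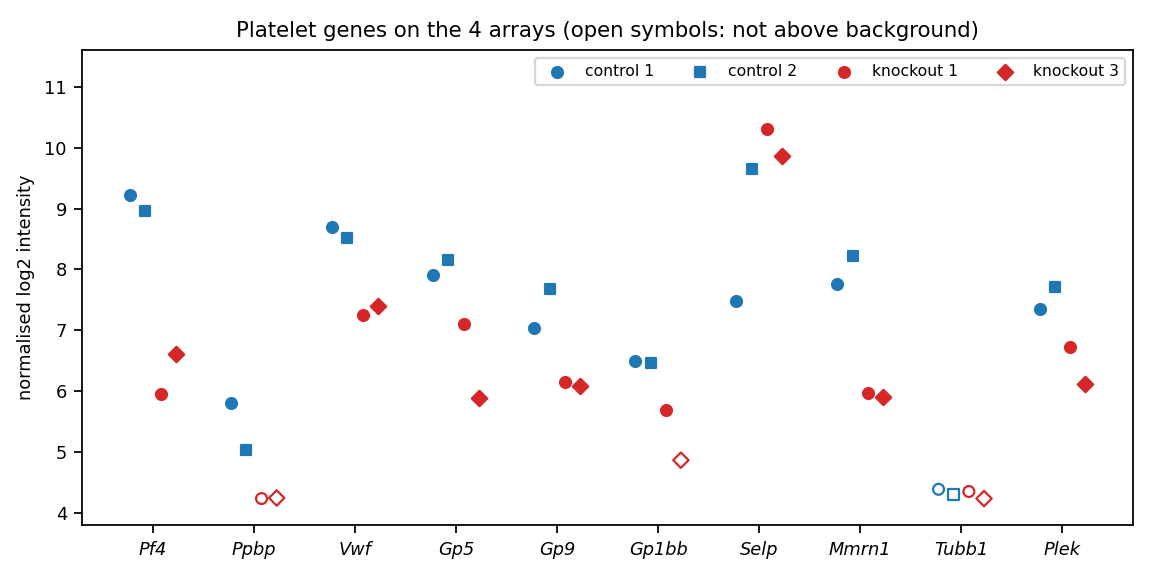
Normalised log2 intensity of the 10 genes on the 4 arrays, controls in blue and knockouts in red, with open symbols where the gene was not above background. The 8 genes with lower knockout values are separated by genotype, Ppbp is open on both knockout arrays and Gp1bb on knockout replicate 3, and the Selp value of control replicate 1 (7.47) lies away from the other 3.

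The spread between arrays of a genotype differed among the genes. Pf4, Vwf, Gp9, Mmrn1 and Plek lay within 0.66 on the log2 scale in either genotype, whereas the knockout arrays lay 0.83 apart for Gp1bb and 1.21 apart for Gp5. Knockout replicate 3 was the lower of the knockout arrays in Gp5, Gp1bb, Gp9, Plek and Mmrn1 and the higher in Pf4 and Vwf. Relative to the control mean, the median of the 10 genes lay at −1.06 for knockout replicate 1 and at −1.34 for replicate 3, with the controls at −0.05 and 0.05, while the median of all genes tested was −0.01 and −0.08 on the knockout arrays. 9 of the 10 genes passed the detection filter and 7 were above background on all 4 arrays. Of 10554 genes above background on both control arrays, 31.8% were not above background on 1 or both knockout arrays, against 2 of 9 here, Ppbp and Gp1bb. The sizes depended on background correction. Without it Ppbp was at −0.41, Gp1bb at −0.52, Plek at −0.69, Gp9 at −0.74 and Vwf at −0.98, all under 2-fold, and Mmrn1 was at −1.27 and Pf4 at −2.01.

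**Figure D3:**
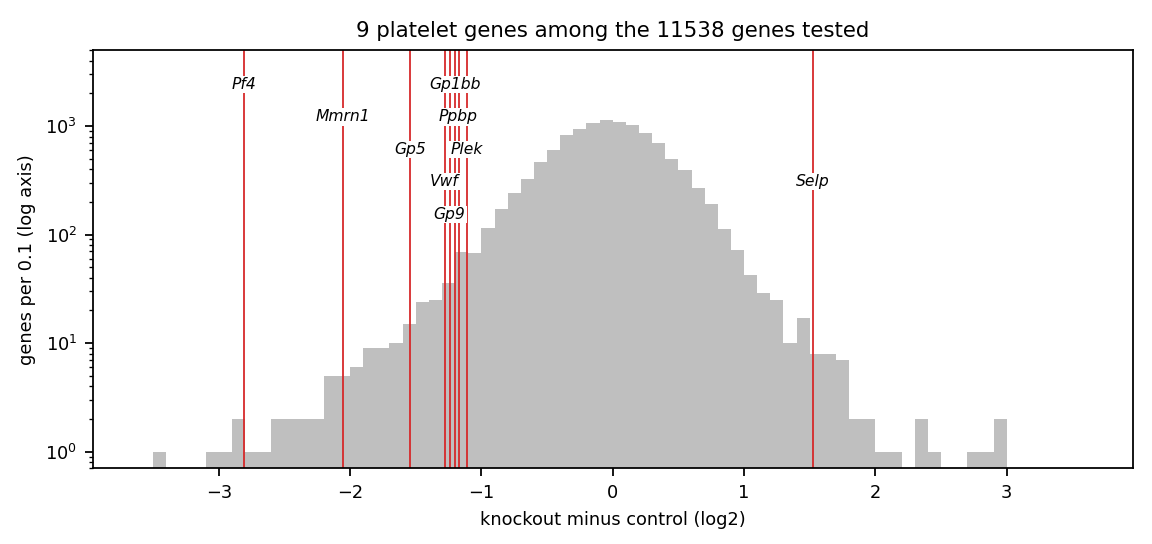
Distribution of the knockout minus control difference (log2) over the 11538 genes tested, with the number of genes per 0.1 on a log axis and red lines at 9 of the 10 platelet genes. Pf4 (−2.81) and Mmrn1 (−2.05) lie in the sparse lower tail, 6 others between −1.54 and −1.11, and Selp at 1.52 in the upper tail.

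Other genes of platelet biology were counted from lists by role that exclude the 10 genes. Of 123 listed genes 84 were tested, and 61 of these had a lower and 23 a higher mean in the knockout, with a median of −0.18 against −0.04 for all genes. 53.6% of all genes tested had a lower mean in the knockout. None of the 84 passed an adjusted p of 0.05 in limma (0% of all genes did), and 17 lower and 2 higher passed an unadjusted p of 0.05, as did 8.77% of all genes in the lower and 6.56% in the higher direction. 36 had both knockout values below both controls and 8 had both above, against 28.1% and 22.0% of all genes. Markers of long-term stem cells, whose values are given with the endothelial markers, had 5 of 6 tested genes lower, and their part was not tested.

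The surface receptors had the lowest median of these lists (−0.72), and all 9 tested genes had a lower mean in the knockout. Treml1, a receptor of the alpha-granule membrane, stood at 8.40 and 7.74 in the controls, against 7.29 and 6.35 in the knockouts (−1.25 ± 0.39, adjusted p = 0.268 in limma). The genotypes of Treml1 did not overlap, and Pear1, a receptor that sustains platelet aggregation, was at −1.15 ± 0.21. Itga2b, the integrin chain that marks megakaryocytes as CD41, was at −0.81 ± 0.20. Gp6 and Clec1b, the collagen and podoplanin receptors, were not above background on any array. Among G protein-coupled and ion channel receptors 6 of 9 tested were lower and the median was −0.18. F2r, a thrombin receptor that mouse platelets lack, was at −0.98 ± 0.37, P2rx1, an ATP-gated channel, at −0.90 ± 0.28, and Ptgir, the prostacyclin receptor, at 0.67 ± 0.24. F2rl3, a thrombin receptor of mouse platelets, was at −0.18 ± 0.20, a difference smaller than its error, although its genotypes did not overlap.

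Other alpha-granule cargo lay on both sides of 0. Of 9 tested genes 5 were lower and 4 higher, with a median of −0.05. F13a1, the A subunit of coagulation factor XIII, which monocytes also make, stood at 8.03 and 7.42 in the controls, against 9.51 and 9.29 in the knockouts (1.68 ± 0.27, adjusted p = 0.181 in limma). Its genotypes did not overlap. Serpine2, a protease inhibitor, was at 0.59 ± 0.25. Timp1, a metalloproteinase inhibitor, was above background on both knockout arrays and neither control array, so it passed the detection filter through the knockouts alone. It has only a bound, 1.52-fold higher and not a strict minimum, with log2 means of 4.30 and 4.94. Thbs1 and Fn1 were not above background on any array, and Sparc on 1 control array only. Monocyte and macrophage markers had 3 of 5 tested genes higher, and their summed normalised intensity was 106 and 102 in the controls, against 197 and 156 in the knockouts. Only 1 of their 9 rows was above background on all 4 arrays. Ccr2 was at 1.42 ± 0.19, whereas Csf1r was at −0.02 ± 0.44 and Mrc1 at −0.01 ± 0.24. The part of these markers in the value of F13a1 was not tested.

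Genes that build granules had 14 of 18 tested lower, with a median of −0.18. Slc18a2, the vesicular monoamine transporter that fills dense granules with serotonin and is also used by mast cells and basophils, stood at 7.55 and 7.43 in the controls, against 5.96 and 5.48 in the knockouts (−1.77 ± 0.24, adjusted p = 0.157 in limma). The genotypes of Slc18a2 lay well apart. The mast cell and basophil markers summed to 747 and 695 in the controls, against 627 and 718 in the knockouts, with 3 of 5 tested genes lower and a median of −0.32. Within these markers Prss34, a protease, was at −2.47 ± 0.44 and Cpa3, a carboxypeptidase, at −0.75 ± 0.21, both without overlap, whereas Hdc, the histamine-forming enzyme, was at 1.06 ± 0.25. Hdc stood at 7.86 and 7.47 in the controls, against 8.55 and 8.90 in the knockouts, where it was the brightest of these markers. The similar sums therefore do not mean that the markers were unchanged. The part of these markers in the value of Slc18a2 was not tested. Nbeal2, whose loss empties platelets of alpha granules, was at −0.95 ± 0.24, and Vipas39, a partner of Vps33b in granule biogenesis, at −0.52 ± 0.22. In the release machinery 7 of 9 tested were lower, with Sytl4, a Rab27 effector, at −0.64 ± 0.27 and Unc13d, a priming factor for granule release, at −0.60 ± 0.21.

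The cytoskeletal genes of platelets were split, 7 lower and 7 higher of 14 tested, with a median of 0.00. Zyx, the focal adhesion protein zyxin, was at −0.64 ± 0.20, Tpm4, a tropomyosin, at 0.52 ± 0.28 and Tuba4a, an alpha-tubulin, at 0.46 ± 0.34. Of the signalling genes and enzymes 13 of 16 tested were lower and the median was −0.44. Tbxas1, the thromboxane synthase, stood at 6.82 and 7.42 in the controls, against 5.63 and 6.05 in the knockouts (−1.28 ± 0.29, adjusted p = 0.237 in limma), without overlap. Fyb, an adaptor that links receptors to integrin activation, was at −0.68 ± 0.33 and Gng11, a G protein subunit, at −0.62 ± 0.29. The transcription factors that drive megakaryocyte genes had 9 of 11 tested lower and a median of −0.46, with 0 past the adjusted threshold in limma and 4 past an unadjusted p of 0.05, all 4 lower, against 8.77% of all genes in that direction. The largest were Meis1 (−1.32 ± 0.34), Gata2 (−1.18 ± 0.30) and Gfi1b (−1.15 ± 0.26), while Gata1 was at −0.27 ± 0.33 and Fli1 at −0.17 ± 0.65.

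**Figure D4:**
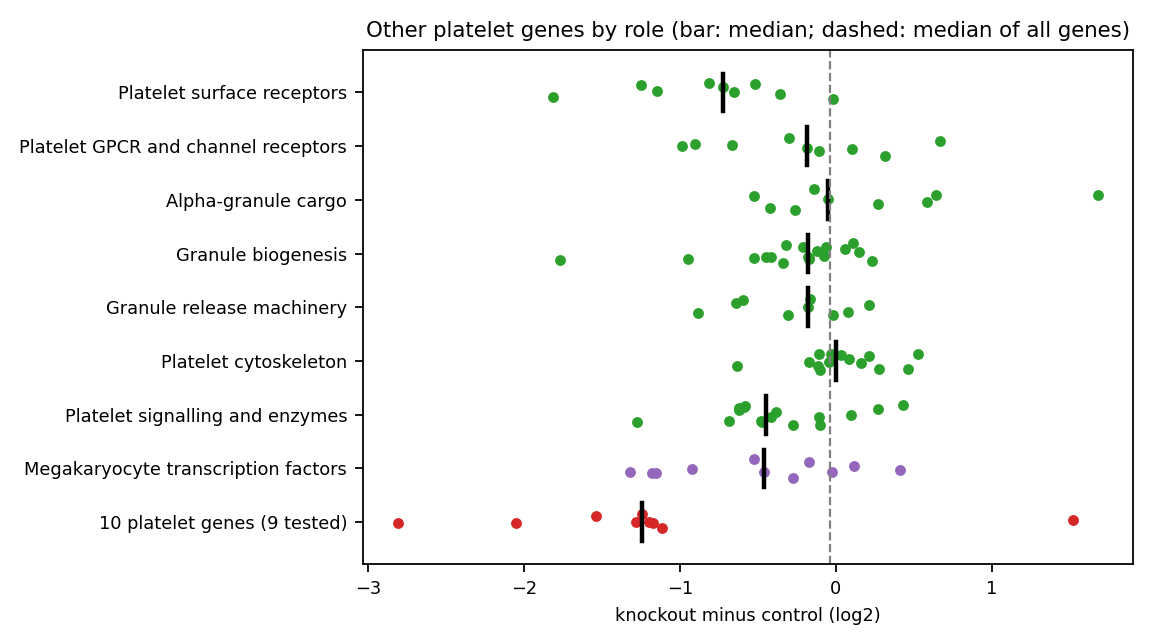
Knockout minus control difference (log2) of each tested gene of the platelet lists by role, of megakaryocyte transcription factors and of the 9 tested genes among the 10, with the list median as a black bar and the median of all genes (−0.04) dashed. Surface receptors lie lowest among the role lists (median −0.72), and cargo and cytoskeletal genes lie on both sides of 0.

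Close relatives of the 10 genes were read because a bead probe can share sequence with a paralog. Of 16 relatives with a row, 11 were above background on at least 1 array and 6 were tested. Sele, the E-selectin gene, was not above background on any array. Emilin2, of the same protein family as Mmrn1, was at 1.20 ± 0.23 (adjusted p = 0.215 in limma), opposite in sign to Mmrn1, and Emilin1 was at 0.01 ± 0.35. Mmrn2, the endothelial multimerin, was above background on 1 control array only. Among beta-tubulins Tubb4b was at 0.02 ± 0.25 and Tubb6 at 0.88 ± 0.35. Tubb2b, above background in the controls alone, had a bound 1.20-fold lower in the knockout, not a strict minimum, with log2 means of 4.68 and 4.42. Tubb5 stood at 12.22 and 11.99 against 12.48 and 12.50 and was not tested because its detection p was above the limit on 3 arrays, and Tubb4a was above background on 1 control array. Plek2, the paralog of Plek, and the chemokine gene Cxcl2 were each above background on 1 control array. Cxcl1 and Cxcl3, which lie in the chemokine cluster of Pf4 and Ppbp, were not above background on any array.

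Because Vwf, Selp and Mmrn1 are also endothelial genes, endothelial markers were read beside them. All 12 had a row and 10 were above background on at least 1 array. Kdr and Cldn5, which define endothelium, were not above background on any array, and Cdh5 was above background on 1 knockout array only. The summed normalised intensity of the 12 markers was 1684 and 1632 in the controls, against 1494 and 1517 in the knockouts. Egfl7 weighed most in these sums, as the brightest of the markers, and it was higher in the knockouts. Its log2 means were 9.59 in the controls and 9.87 in the knockouts, against 8.24 and 7.48 for Eng, which was lower. The sums therefore do not mean that the other endothelial markers were little changed. Of 7 tested, 5 were lower and 2 higher, with a median of −0.51. Tie1, a receptor of endothelium and stem cells, was at −0.89 ± 0.20, Eng, a TGF-beta co-receptor, at −0.76 ± 0.24, Emcn, a sialomucin also found on stem cells, at −0.61 ± 0.30 and Tek, which also counts among the stem cell markers, at −0.51 ± 0.28, whereas Plvap was at 0.92 ± 0.25. Pecam1 was at −0.01 ± 0.20 and Egfl7 at 0.28 ± 0.22. Markers of long-term stem cells summed to 787 and 850 in the controls, against 425 and 446 in the knockouts, with 5 of 6 tested lower and a median of −0.69. Among these Ndn was at −1.94 ± 0.22 and Gprasp2 at −1.02 ± 0.23, whereas Slamf1 was at 0.19 ± 0.29. Procr was not above background on any array, and Hlf and Fgd5 were above it on knockout replicate 1 only. Markers of granulocyte-monocyte progenitors summed to 9719 and 8827 against 15810 and 22265, with 8 of 9 tested higher. Erythroid markers summed to 4342 and 3612 against 2883 and 8087, with 4 of 9 tested lower and 5 higher. The globin genes were high on knockout replicate 3, where Hba-a1 stood at 11.90 and Hbb-b1 at 11.57, while Car1 stood at 10.46 and 10.01 in the controls, against 8.02 and 7.72 in the knockouts (−2.36 ± 0.25), and Klf1 was at −0.65 ± 0.21 and Epor at −0.57 ± 0.21. 4 erythroid markers were lower and 3 higher without overlap, the latter including Tfrc at 0.77 ± 0.21 and Alas2 at 0.65 ± 0.34. Neutrophil markers summed to 1412 and 4406 against 16198 and 929, with 1 of 8 tested lower and 7 higher and overlapping genotypes in all 8. B cell markers summed to 1360 and 693 against 828 and 323, with 5 of 5 tested lower but only 2 of these without overlap. The knockout arrays lay 2.47 apart for Igll1 and 1.97 apart for Vpreb1. T and NK cell markers summed to 1528 and 1252 against 2580 and 3755, with 2 of 6 tested lower, 4 higher and a median of 0.06. That sum rested on Nkg7, a granule protein gene of cytotoxic cells at 1.24 ± 0.28 and the 1 marker of 8 above background on all 4 arrays, whereas Cd8a was not above background on any array. The part of any of these markers in the platelet values was not tested.

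**Figure D5:**
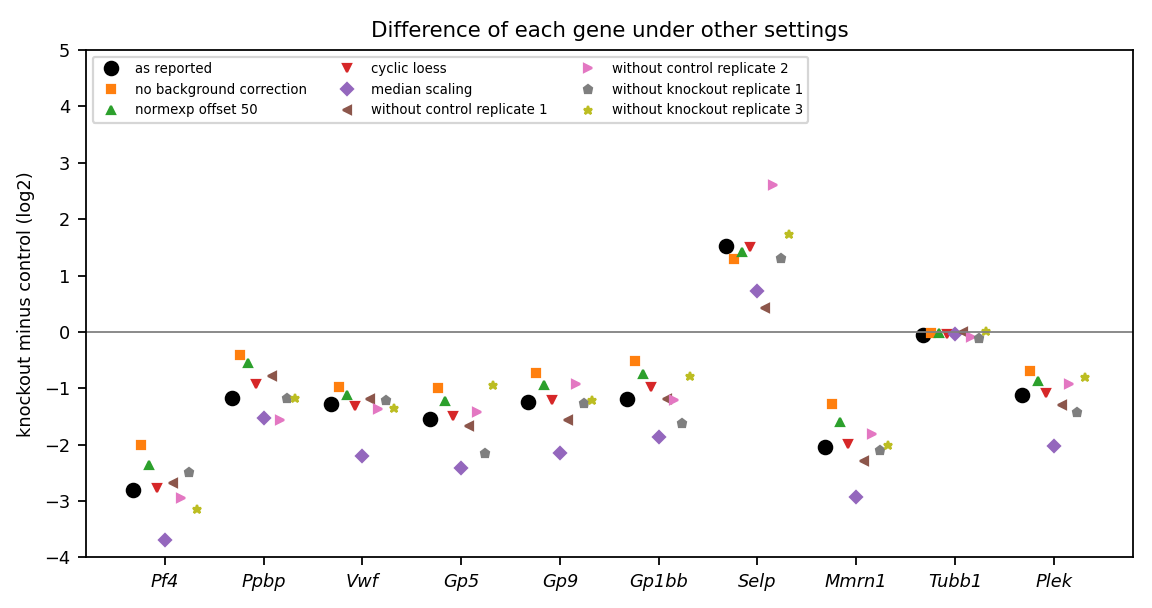
Knockout minus control difference (log2) of each of the 10 genes as reported and under 8 other settings, 4 of processing and 4 that leave out an array. The 8 lower genes stay below 0 under every setting drawn, from −3.69 (Pf4, median scaling) to −0.41 (Ppbp, no background correction), and Selp runs from 0.43 to 2.61.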

How the data were processed

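Total RNA of sorted LSK cells was amplified to biotinylated cRNA and hybridised to Illumina bead arrays, per the labels' protocols. The deposited table gives per gene name an intensity without background subtraction or normalization, a detection p-value (unit other), the standard error over beads (a signal on the intensity scale) and the number of beads, per the file headers. How probes were combined is not given in the sources used here. 1 row that held text was dropped. The deposited value table was not used here, because its probe identifiers could not be paired with genes.

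Names were updated through RefSeq gene names (GRCm38.p6): 16223 matched a symbol, 5684 an older symbol and 868 an identifier, and 8079 stayed as written. Intensities were background-corrected by normexp (936 negative control probes, offset 16), quantile-normalized and taken to log2 (neqc, limma 3.58.1, R 4.3.3). Genes above background (detection p under 0.05) on at least 2 of 4 arrays were kept, using the brightest row per gene, which left 11538. Knockout minus control was fitted with lmFit and eBayes without covariates, two-sided, with Benjamini-Hochberg adjustment over all genes. The fit was tested on simulated data. Standard errors combine the spread between 2 pools per genotype with a variance shared over genes (3.72 prior degrees of freedom). A bound sets the brighter mean against, per array of the dimmer genotype, the higher of the gene's value and the lowest value above background. Genes can be below background at higher values, as Gp1bb was at 4.87 on knockout replicate 3, so a bound is not a strict minimum. Summed marker levels are normalised linear intensities less the offset. The 10 genes and all lists were chosen with earlier results of these data known. Named were the 10 genes, the 3 tested genes per list with the largest difference, paralogs above background and endothelial markers. For Pf4 and Selp, the 5 genes nearest in centred log2 values were also named. Itga2b, F2rl3, Gata1, Fli1 and genes below background were added after their values were seen. So were the mast cell, erythroid, monocyte and macrophage, stem cell and T and NK cell markers given. Some genes that the rule names are counted in their lists and not reported by name here. Alternatives changed background correction, offset, normalization, detection filter, row choice and variance model, and left out each array.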

Additional observations from a re-analysis of the deposited data

How the results depend on the processing

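Of the 12 alternatives, 4 (both detection filters, the choice of row and trend and robust eBayes) cannot move the values of the 10 genes. The other 8 gave 80 values, and 79 kept the sign of the reported value. The exception was Tubb1, at background on every array, which was 0.01 without knockout replicate 3. The count of genes with a lower mean was 9 of 10 in every alternative but that one, where it was 8. The count at least 2-fold lower, 8 as reported, was 3 without background correction, 4 with an offset of 50, 6 with cyclic loess and 8 with median scaling, and ran from 5 (without knockout replicate 3) to 8 with each array left out. The median difference of the 10 genes, −1.22 as reported, was −0.71 without background correction, −0.91 with an offset of 50, −1.14 with cyclic loess and −2.08 with median scaling, where all genes were at −0.70. With each array left out it ran from −1.34 to −1.06, the latter without knockout replicate 3. Over all genes 0 passed the adjusted threshold as reported. The count was 3 with cyclic loess, 940 with median scaling, 15 with trend and robust eBayes, 17 with detection on all 4 arrays and 0 in the other alternatives. At an unadjusted p under 0.05 there were 1012 lower and 757 higher genes as reported, 535 and 398 without control replicate 2, 609 and 431 without knockout replicate 3, 583 and 676 with detection on all 4 arrays, 1865 and 1418 without a detection filter and 4368 and 20 with median scaling. Of the other platelet genes 0 passed as reported, 16 passed with median scaling, all 16 lower, and 1, also lower, with trend and robust eBayes. Under median scaling their median was −1.02. Median scaling leaves the knockout arrays dimmer. The causes of the other shifts were not tested. The alternative of using the deposited value table could not be run, since its rows could not be named. No paired analysis was possible because the genotypes share only replicate number 1. Ppbp and Gp1bb are limited by the signal over background of the knockout arrays, and Tubb1 by that of all 4 arrays.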

Other observations

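The genes next to the 10 on their chromosomes were read from the RefSeq gene order, a choice made after the other values were seen. Cnrip1, which lies beside Plek, stood at 7.85 and 8.43 in the controls, against 6.95 and 7.12 in the knockouts, a difference of −1.10 ± 0.26 beside −1.11 for Plek. Cd9, a tetraspanin gene beside Vwf, was at −0.02 ± 0.28, and F5, the coagulation factor V gene beside Selp, at 0.27 ± 0.27. Rab43 beside Gp9 was at −0.58 ± 0.33, Atp13a3 beside Gp5 at 0.09 ± 0.36 and Ctsz, a cathepsin gene beside Tubb1, at 0.86 ± 0.38. The adjusted p of Cnrip1 was 0.237 in limma, and none of these 6 passed the threshold.

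Over the 4 arrays, the 5 genes whose centred log2 values lay nearest to those of Pf4 by Euclidean distance were the unmatched name A430006M23RIK (0.74), Prss34, a basophil and mast cell protease (0.75), Car1, an erythroid carbonic anhydrase (0.82), Rab6b (0.84) and Serinc3 (0.90). The nearest to Selp were the unmatched 5730494J16RIK (0.80), Rabl6 (0.87), Senp1 (0.87), the unmatched B230387C07RIK (0.88) and Rbm25, an RNA-binding protein gene (0.97). Senp1 stood at 6.13 and 7.33 in the controls, against 7.84 and 8.01 in the knockouts, and its lowest value was that of control replicate 1, as for Selp. With 4 arrays, such nearness is a description.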
